A study of Mus musculus with 3 samples.

Results

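Sugar chains coat the luminal face of endothelium, and 42 mouse genes that build, trim or carry these chains were followed in adult lung endothelial cells (ECs). The 42 were taken by name, with earlier results of these data known, and all 42 have a row among the 24346 gene symbols of the deposited expression table. They comprise 13 core proteins of proteoglycans (4 syndecans, 6 glypicans and 3 secreted proteoglycans), 7 genes that start or extend heparan sulfate, 14 that modify it in the Golgi, 3 that edit or cut it outside the cell, 3 hyaluronan synthases and 2 hyaluronidases.

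The endothelial glycocalyx is a gel of proteoglycans, hyaluronan and glycoproteins that lies between blood and the EC membrane. Heparan sulfate is polymerised on serine residues of core proteins and then sulfated at several positions, and the resulting pattern decides which proteins bind, among them antithrombin, lipoprotein lipase, chemokines and growth factors. Hyaluronan carries no core protein and no sulfate, and is extruded through the plasma membrane by its synthases and degraded by hyaluronidases. In lung capillaries this coat is known as a barrier to fluid and to leukocytes that is shed in inflammation.

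The study compared ECs of several organs and ages of the mouse. The 3 libraries used here, S38, S44 and S52, are replicates of 1 condition, namely ECs taken fresh from the lungs of male wild type C57BL/6J mice aged 6 to 8 weeks. Antibody to VE-cadherin was given into the circulation before death, and cells positive for CD31 and VE-cadherin and negative for CD45 and podoplanin were sorted by flow cytometry. With 1 condition there was no difference between groups to test, and the sources do not say whether the libraries came from separate animals, so each SD is the spread of these 3 libraries and may be technical.

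Levels are fragments scaled by transcript length and by library size (FPKM), so that levels of different genes can be set side by side. The columns were not scaled to a common sum (1153890 FPKM in S38, 1603596 in S44 and 1419351 in S52). The table gives no counts. A depth of about 38000000, 39000000 and 34000000 fragments was estimated from the step between low values, so that 1 FPKM of a transcript of 2000 bp stood for about 69.9, 71.7 and 62.6 fragments, in the same order. The 10 endothelial markers had medians of 482, 533 and 484 FPKM. Of the 4 lymphatic markers on the list, the factor *Prox1* was lowest by mean, at most 0.598 FPKM, and *Flt4* was highest, at 19.8 to 23.8 FPKM. *Lyve1* was not on that list and is given below with hyaluronan binding. The alveolar type 2 marker *Sftpc*, at 3333, 2862 and 658 FPKM, was above every endothelial marker in S38 and S44. Markers of several other cell types were also present and, for platelets, leukocytes, airway and alveolar type 2 cells, were lower in S52 than in S38 and S44, as given with the members they touch.

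Of the 42 genes, 26 were detected, taken as a mean of at least 1 FPKM, against 48.3% of all genes of the table. A mean of at least 10 FPKM was reached by 14 of the 42 (25.7% of all genes), and *Hyal2* alone passed 100 FPKM. At the other end, 6 genes were listed at 0 in all 3 libraries (29.5% of all genes), and the other 10 lay between 0.00602 and 0.823 FPKM. The median of the 42 means was 4.31 FPKM, beside 0.784 FPKM over all genes. These counts and medians describe the list and were not tested. In bulk RNA, a low value from fewer expressing cells and a low value from less RNA per cell cannot be told apart.

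**Figure D1:**
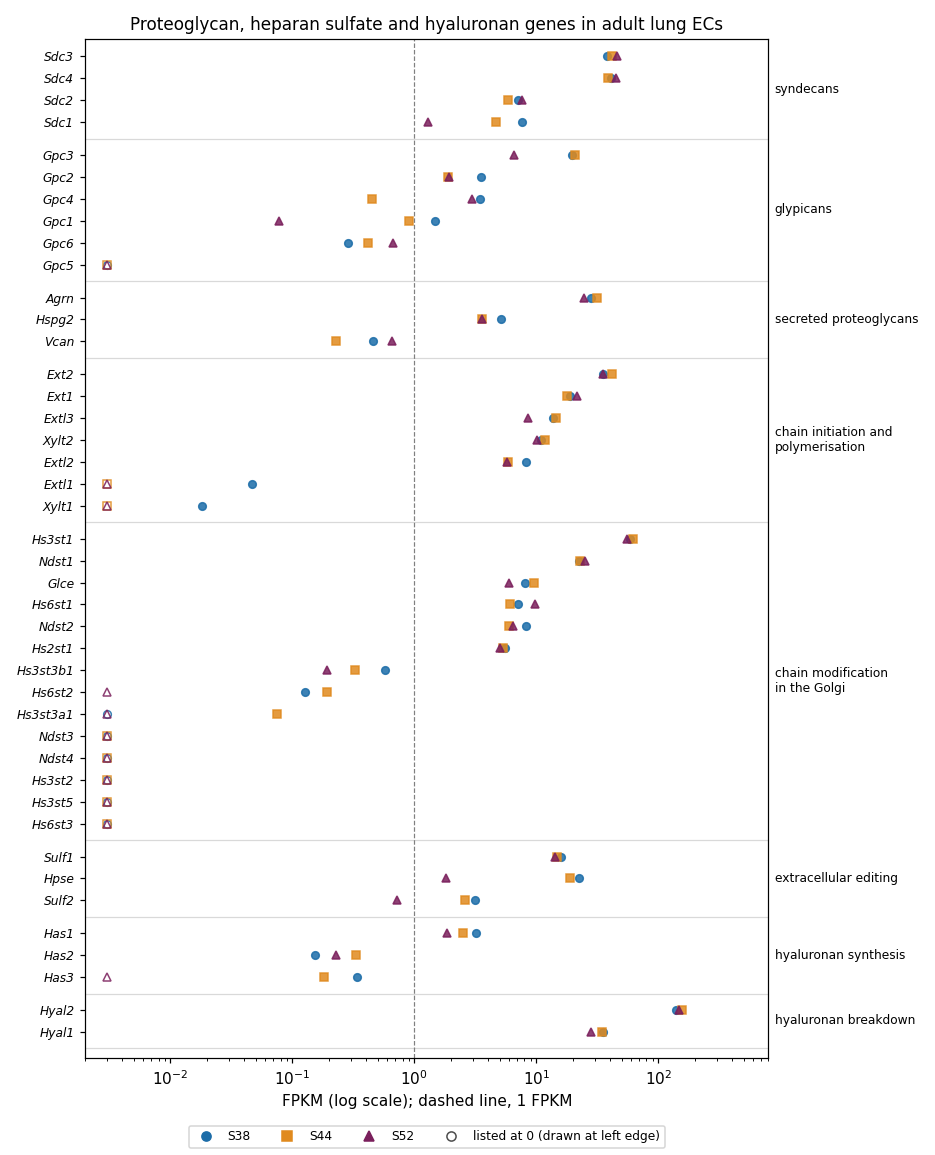
Level of each of the 42 genes in FPKM (horizontal log axis) in the libraries S38, S44 and S52, with genes in rows grouped by role and ordered by their mean. Points lie close together for most detected genes, from *Hyal2* at 141 to 155 FPKM downwards, whereas *Hpse*, *Sdc1*, *Gpc3* and *Sulf2* have the S52 point well to the left and *Gpc4* the S44 point.

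*Hyal2*, the membrane-anchored hyaluronidase that cuts long hyaluronan at the cell surface, was the highest of the 42, with 141, 155 and 148 FPKM in S38, S44 and S52. Its mean of 148 FPKM ± 7.39 (SD, n = 3) placed it 611th in the table, above 97.5% of genes. Next came *Hs3st1*, the 3-O-sulfotransferase that completes the antithrombin-binding site of heparan sulfate, with values of 58.5, 62.3 and 55.3 FPKM across S38, S44 and S52. Its mean was 58.7 FPKM ± 3.51 (SD, n = 3), and neither its range nor that of *Hyal2* touched the range of the gene below. Below them the order was close. Among the 25 neighbouring pairs in the order of the 26 detected genes, the ranges over libraries were apart in 7 and overlapped in 18, and 8 pairs kept their order in every library.

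The table holds expression and no regulatory data, so start-site sequence is given only to show what lies upstream of a leading gene and of its undetected paralogue. RefSeq start windows of GRCm38.p6 were on hand for 31 of the 42 genes. Shown 5′ to 3′ are the 250 bases before the start of *Hs3st1*, of *Hs3st2*, the paralogue that was listed at 0, and of *Sdc4*, a leading syndecan. They lie at chr5:39644632-39644881 (minus strand), chr7:121392046-121392295 (plus strand) and chr2:164443189-164443438 (minus strand), and for each the GENCODE annotation also holds a transcript that starts further upstream. Capitals mark the GC box GGGCGG, or its reverse complement, as bound by Sp1-type factors. The ETS core CGGAAG and the TATA box TATAAA were searched on both strands as well.
Hs3st1: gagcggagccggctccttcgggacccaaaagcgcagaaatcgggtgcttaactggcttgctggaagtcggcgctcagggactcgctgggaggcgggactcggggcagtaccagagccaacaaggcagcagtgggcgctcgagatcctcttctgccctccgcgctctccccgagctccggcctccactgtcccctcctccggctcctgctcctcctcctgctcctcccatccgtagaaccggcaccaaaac
Hs3st2: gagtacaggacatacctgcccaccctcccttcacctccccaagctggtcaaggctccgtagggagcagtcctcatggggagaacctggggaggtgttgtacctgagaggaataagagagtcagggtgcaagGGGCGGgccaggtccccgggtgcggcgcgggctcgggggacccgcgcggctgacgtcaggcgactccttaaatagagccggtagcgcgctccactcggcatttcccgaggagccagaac
Sdc4: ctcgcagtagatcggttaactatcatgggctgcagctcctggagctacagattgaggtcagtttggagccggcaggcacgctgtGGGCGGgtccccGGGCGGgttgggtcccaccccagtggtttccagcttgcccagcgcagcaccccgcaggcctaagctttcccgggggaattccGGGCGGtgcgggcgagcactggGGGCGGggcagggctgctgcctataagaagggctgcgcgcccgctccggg
The letters of the GC box occurred 4 times before *Sdc4*, 1 time before *Hs3st2* and not before *Hs3st1*, and no window held the letters of the other 2 motifs. The undetected *Hs3st2* thus had a GC box that the abundant *Hs3st1* lacked in this window, and the shares of G and C were alike (64.8% and 66.0%).

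Over full windows, which run to 50 bases past the start, the GC box was found in 79.2% of 24 windows of detected members and in 58.3% of 12 windows of members below 1 FPKM. It was found in 62.7% of the windows of all detected genes, in 27.6% of those of all genes below 1 FPKM and in 35.7% of all 32851 windows. The ETS core CGGAAG was found in 4.17% of the windows of detected members, that is only in 1 window of *Extl2*, beside 30.9% for all detected genes. It was found in 8.33% of the windows of members below 1 FPKM, beside 9.63% for all genes below 1 FPKM. The 24 windows cover 21 of the 26 detected members, and the others had no window. Some genes have 2 windows, and a match of letters is not evidence of binding. Members detected and members below 1 FPKM were both rich in G and C, with medians of 66.7% and 62.0%, beside 60.7% over detected genes, 50.7% over genes below 1 FPKM and 52.7% over all windows. The lowest were the 2 windows of *Ndst3*, a gene listed at 0, with 39.0% and 43.0%.

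Syndecans, the transmembrane carriers of heparan sulfate, summed to 94.0, 90.8 and 100.1 FPKM in S38, S44 and S52, and all 4 were detected. *Sdc3* had 38.05 FPKM (S38), 41.7 FPKM (S44) and 45.8 FPKM (S52), with a mean of 41.8 FPKM ± 3.88 (SD, n = 3). *Sdc4*, which also takes part in focal adhesions, had 41.3, 38.5 and 45.3 FPKM in S38, S44 and S52, with a mean of 41.7 FPKM ± 3.42 (SD, n = 3). The pair shared the lead, since their ranges overlapped and the ratio of *Sdc4* to *Sdc3* was 1.09, 0.924 and 0.990 in the 3 libraries. Together they made up most of the family, with 44.1% ± 3.09 for *Sdc3* and 43.9% ± 1.43 for *Sdc4* (SD, n = 3). *Sdc2* followed at 6.85 ± 0.917 FPKM, lower than *Sdc4* in every library by a ratio of 5.86 to 6.58. *Sdc1*, the syndecan best known from epithelia and plasma cells, had values of 7.59, 4.71 and 1.29 FPKM across S38, S44 and S52. It was lowest in S52, where it stood 5.89-fold below S38 and 3.66-fold below S44, while the other 3 syndecans were highest in S52. *Sdc3* lies at chr4:130792537-130826319, plus strand, and *Sdc4* at chr2:164424247-164443887, minus strand (GRCm38).

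Glypicans, which are tethered to the membrane by a lipid anchor, were lower, with sums of 28.5, 24.5 and 12.2 FPKM, and 3 of 6 were detected. *Gpc3* led with 19.7 FPKM (S38), 20.8 FPKM (S44) and 6.502 FPKM (S52). Its mean of 15.7 FPKM ± 7.97 (SD, n = 3) was 69.2% ± 15.8 of the family, a share that ranged from 53.4% in S52 to 84.98% in S44. The range of *Gpc3* stayed above those of all other glypicans, also in S52. *Gpc4* had 3.45, 0.449 and 2.996 FPKM in S38, S44 and S52, 7.68-fold apart, with S44 the low library and about 43.6 estimated fragments behind its value there. *Gpc3* and *Gpc4* are neighbours on chromosome X, at chrX:52272426-52613950, minus strand, and chrX:52053021-52165252, minus strand, yet they were low in different libraries. *Gpc2* averaged 2.46 ± 0.947 FPKM, but its exons overlap those of the annotated gene *Gm43720* on the same strand over 2376 bp, so its value is uncertain.

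*Gpc1* had a mean just below the cut-off of 1 FPKM that was taken as detected, with values of 1.48, 0.911 and 0.0779 FPKM across S38, S44 and S52. It was the member nearest to this cut-off from below and *Sulf2*, at a mean of 2.166 FPKM, the nearest from above. *Gpc1* also showed the largest ratio of any member found in all 3 libraries, 19.0-fold, with about 226 estimated fragments in S38 and 10.6 in S52. *Gpc6* averaged 0.457 ± 0.194 FPKM and was highest in S52. *Gpc5* was listed at 0 throughout.

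Of the secreted proteoglycans, *Agrn* led. *Agrn* encodes agrin, a basement membrane heparan sulfate proteoglycan, and had 28.3 FPKM (S38), 31.1 FPKM (S44) and 24.5 FPKM (S52). Its mean was 27.98 FPKM ± 3.35 (SD, n = 3), or 86.0% ± 2.84 of the 3 genes. *Hspg2*, which encodes perlecan, the other large heparan sulfate proteoglycan of vascular basement membranes, averaged 4.100 ± 0.897 FPKM. *Agrn* exceeded *Hspg2* by a ratio of 5.52, 8.67 and 6.85, and their ranges did not overlap. *Vcan*, a chondroitin sulfate proteoglycan that binds hyaluronan, averaged 0.446 ± 0.211 FPKM. All of these values describe RNA, and the amount of core protein at the surface or in the matrix was not measured.

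Chains start with xylose, and here a single enzyme accounted for nearly all transcripts. *Xylt2* had 10.9, 11.8 and 10.2 FPKM in S38, S44 and S52 and a mean of 10.95 FPKM ± 0.824 (SD, n = 3), which was 99.9% of the pair. *Xylt1* was seen only in S38, at 0.0181 FPKM or about 6.1 estimated fragments, and was listed at 0 in S44 and S52.

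The polymerase that extends heparan sulfate is a complex of the products of *Ext1* and *Ext2*. *Ext2* had values of 35.4, 41.7 and 35.5 FPKM across S38, S44 and S52, and *Ext1* had 18.96 FPKM (S38), 17.95 FPKM (S44) and 21.6 FPKM (S52). Their means were 37.5 FPKM ± 3.62 (SD, n = 3) and 19.5 FPKM ± 1.87 (SD, n = 3). *Ext2* was higher in each library, by a ratio of 1.87, 2.32 and 1.65, so the 2 partners were present at unequal RNA levels. *Extl3*, which adds the glucosamine that commits a chain to heparan sulfate, had 13.8, 14.6 and 8.56 FPKM in S38, S44 and S52, with a mean of 12.3 FPKM ± 3.28 (SD, n = 3). *Extl2*, an enzyme that can end chain growth, averaged 6.59 ± 1.39 FPKM. The 4 ranges did not overlap, so the order *Ext2*, *Ext1*, *Extl3*, *Extl2* held for ranges as well as for means. *Extl1* was seen only in S38, at 0.0466 FPKM. The initiation and polymerisation genes together summed to 87.2, 91.9 and 81.6 FPKM.

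The modifying enzymes of the Golgi had the steadiest sum of the 8 role groups relative to its size, with 110, 113 and 108 FPKM in S38, S44 and S52. Of these 14 genes 6 were detected, and in each family that has several members 1 of them dominated. The first modification is N-deacetylation and N-sulfation, on which later steps depend. *Ndst1* led this family with values of 22.2, 23.01 and 24.9 FPKM across S38, S44 and S52, a mean of 23.4 FPKM ± 1.35 (SD, n = 3) and 77.3% ± 3.72 of the family. *Ndst2* averaged 6.88 ± 1.204 FPKM, and the ratio of *Ndst1* to *Ndst2* was 2.70, 3.89 and 3.83. *Ndst3* and *Ndst4* were listed at 0 in every library.

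*Glce*, the epimerase that turns glucuronic into iduronic acid, had 8.02 FPKM (S38), 9.55 FPKM (S44) and 5.997 FPKM (S52). *Hs2st1*, the sole 2-O-sulfotransferase, had 5.52, 5.29 and 5.01 FPKM in S38, S44 and S52, and its SD of 0.257 FPKM was 4.88% of its mean, the smallest relative spread of the detected members. *Hs6st1* had values of 7.02, 6.03 and 9.71 FPKM across S38, S44 and S52, with S52 highest, and made up 98.4% ± 1.54 of the 6-O-sulfotransferases. *Hs6st2* was seen only in S38 and S44, at 0.127 and 0.191 FPKM, and *Hs6st3* was listed at 0. Means of the 3 leading enzymes were 7.86 ± 1.78 FPKM for *Glce*, 5.27 ± 0.257 FPKM for *Hs2st1* and 7.59 ± 1.904 FPKM for *Hs6st1*. The ranges of *Glce* and *Hs6st1* overlapped, so these 2 cannot be ordered.

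The final and rarest modification, 3-O-sulfation, had the highest transcript of all modifying steps. *Hs3st1* was 99.3% ± 0.312 of the 5 genes of its family that are on the list, which need not be the whole family. It exceeded *Ndst1* by a ratio of 2.63, 2.71 and 2.22, *Hs6st1* by 8.34, 10.3 and 5.70, and *Hs2st1* by 10.6, 11.8 and 11.05. RNA levels of different enzymes do not give their activities. Of the paralogues, *Hs3st3b1* averaged 0.363 ± 0.193 FPKM, and *Hs3st3a1* was seen only in S44, at 0.0745 FPKM. These 2 are near-identical in part. They share 413 windows of 51 bases, the read length, or 10.6% of the windows of *Hs3st3a1*, so reads could be split between them. *Hs3st2* and *Hs3st5* were listed at 0. For the 6 members at 0 throughout, 3 fragments would correspond to 0.0106 to 0.0570 FPKM, a limit that covers counting error only and rests on the estimated depth.

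**Figure D2:**
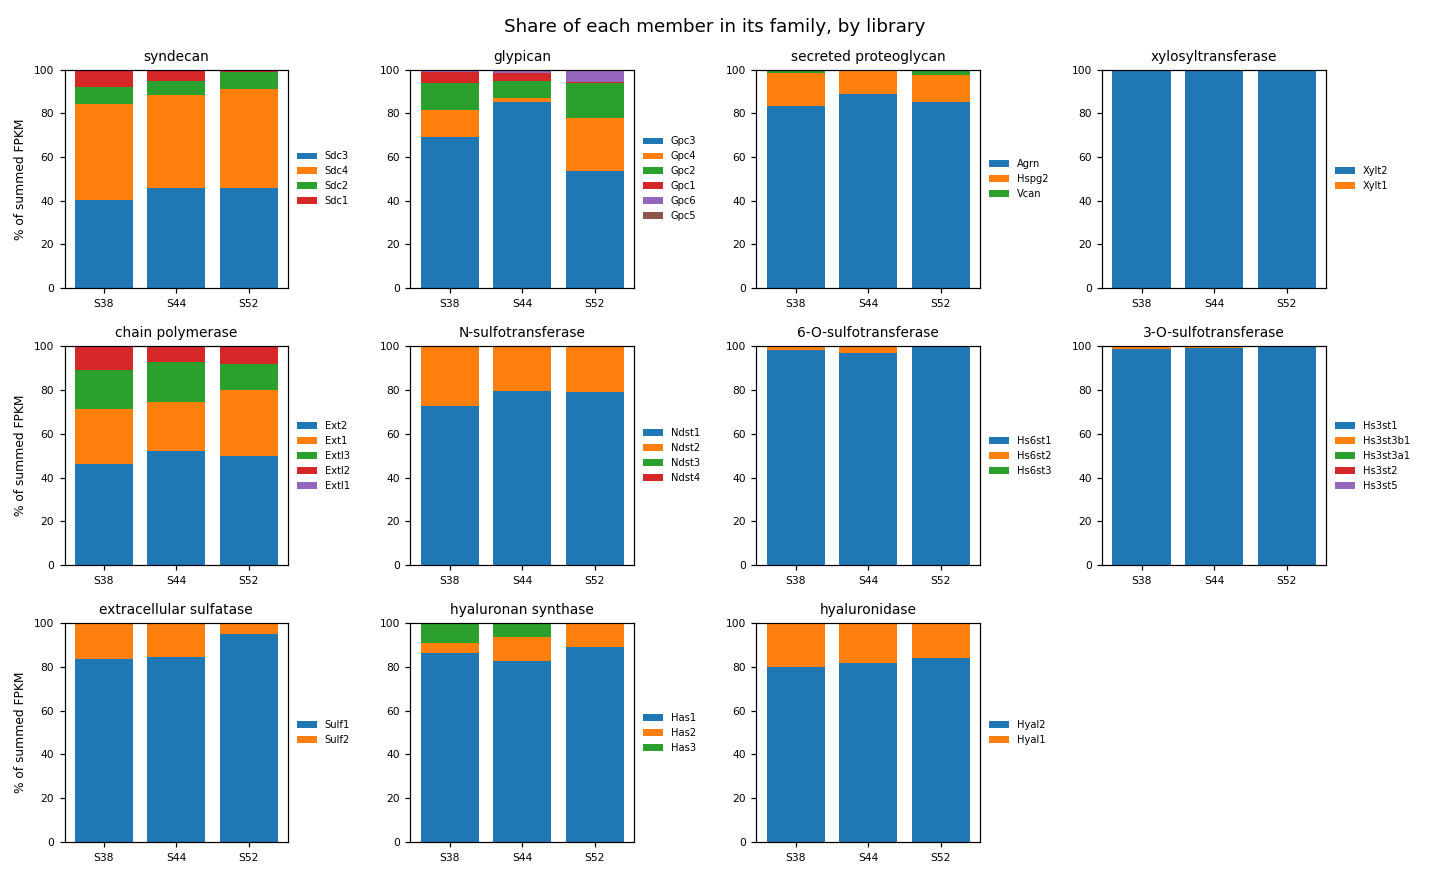
Share of each gene in the summed FPKM of the listed members of its family (vertical axis, %) in S38, S44 and S52, for the 11 families with several members. *Hs3st1*, *Xylt2* and *Hs6st1* fill almost the whole bar in each library, *Sdc3* and *Sdc4* divide theirs nearly evenly, and the glypican bar is the least even across libraries.

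Outside the cell, heparan sulfate is edited by the sulfatases *Sulf1* and *Sulf2*, which remove 6-O-sulfate, and cut by heparanase, the product of *Hpse*. *Sulf1* had 16.1 FPKM (S38), 14.6 FPKM (S44) and 14.2 FPKM (S52), a mean of 14.99 FPKM ± 0.966 (SD, n = 3). *Sulf2* had 3.14, 2.63 and 0.728 FPKM in S38, S44 and S52, and was 4.32-fold lower in S52 than in S38. *Sulf1* was therefore 83.6%, 84.8% and 95.1% of the pair in S38, S44 and S52, and its ratio to *Sulf2* moved from 5.12 and 5.58 to 19.6 while *Sulf1* ranged from 14.2 to 16.1 FPKM. On the opposite strand, exons of *Ncoa3* overlap those of *Sulf2* over 154 bp, and *Ncoa3* was at 16.4, 20.5 and 22.0 FPKM, so part of the *Sulf2* value may be reads of its neighbour. Annotated neighbours whose levels were not examined here also overlap exons of *Sdc3*, *Hs6st1*, *Glce*, *Has2*, *Has3* and *Hs3st3a1*.

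*Hpse* had values of 22.3, 18.8 and 1.81 FPKM across S38, S44 and S52. Its S52 value was 12.4-fold below S38 and 10.4-fold below S44, so that its mean of 14.3 FPKM ± 10.97 (SD, n = 3) stands for no library and its SD was 76.7% of the mean. Without S52 the 3 editing genes summed to 38.8 FPKM on average, and with it to 31.5 ± 13.01 FPKM. In S38 and S44 *Hpse* exceeded *Sulf1*, with a ratio of *Sulf1* to *Hpse* of 0.720 and 0.779, and in S52 the ratio was 7.88.

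Transcripts of the hyaluronan synthases were low. *Has1* had 3.195 FPKM (S38), 2.49 FPKM (S44) and 1.87 FPKM (S52), a mean of 2.52 FPKM ± 0.664 (SD, n = 3) and 86.2% ± 3.09 of the family. *Has2*, the synthase needed for heart development, averaged 0.239 ± 0.0888 FPKM, and *Has3* averaged 0.173 ± 0.169 FPKM and was listed at 0 in S52. The 3 synthases summed to 3.69, 3.003 and 2.099 FPKM, beside 176, 190 and 176 FPKM for the pair of hyaluronidases. This sets transcripts of synthesis and of breakdown side by side and says nothing of hyaluronan turnover, which was not measured.

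*Hyal1*, the lysosomal partner of *Hyal2*, had 35.3, 34.3 and 27.9 FPKM in S38, S44 and S52, with a mean of 32.5 FPKM ± 4.01 (SD, n = 3). *Hyal2* was higher in every library, by a ratio of 3.98, 4.53 and 5.30, and made up 82.0% ± 2.103 of the pair. The genes are neighbours, with *Hyal2* at chr9:107567945-107572779, plus strand, and *Hyal1* at chr9:107576927-107581710, plus strand. Exons of *Hyal1* overlap those of *Hyal3* and of *Naa80* on the same strand over 860 bp. *Hyal3* was at 1.03 to 1.40 FPKM, whereas *Naa80*, listed under its older symbol *Nat6*, had 50.3, 46.0 and 27.6 FPKM in the 3 libraries. Reads in the overlap cannot be assigned with certainty, so the *Hyal1* value is uncertain, and the exons of *Hyal2* overlap those of no other gene.

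Among the detected members, 5 of 26 differed by over 2-fold between their highest and lowest library (*Hpse*, *Gpc4*, *Sdc1*, *Sulf2* and *Gpc3*), beside 20.1% of all detected genes, so the share is near that of the table. In 4 of these 5 S52 was the low library, and without S52 only *Gpc4* remained over 2-fold apart. S38 and S44 differed by over 2-fold in 1 detected member (4.94% of all detected genes), S38 and S52 in 4 (14.9%), and S44 and S52 in 5 (14.1%), so pairs with S52 were further apart over the whole table as well. S52 was the lowest library for 15 of the 26 detected members and for 46.3% of all detected genes, and for 11 of 26 and 40.1% when each library was scaled to the same sum. The median difference in log2(FPKM + 1) over detected members was -0.18 for S52 minus S38 and -0.07 for S52 minus S44, beside -0.08 and -0.06 over all detected genes, and the latter difference turned to 0.0893 (0.0882 over all detected genes) when each library was scaled to the same sum.

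*Hpse* differed by -3.05 and -2.82 on this scale (S52 minus S38 and S52 minus S44). *Sdc1* differed by -1.91 and -1.32, *Gpc3* by -1.47 and -1.54, and *Sulf2* by -1.26 and -1.07. *Gpc4* stood apart from these 4, with -0.15 and +1.46, as its low library was S44. Upward, *Hs6st1* had the largest difference of the detected members from S38 (+0.42) and, after *Gpc4*, from S44 (+0.61).

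Marker lists of other cell types moved with the same library. The 4 platelet markers summed to 1692, 1345 and 37.96 FPKM in S38, S44 and S52, all 4 were lowest in S52, and their median differences of -5.01 and -4.67 exceeded that of any member. *Hpse* moved in the same direction as these markers with a smaller difference, and also in the direction of the alveolar type 2, airway and leukocyte medians below. The 5 alveolar type 2 markers summed to 3756, 3156 and 760 FPKM, and the 5 airway markers to 2767, 2303 and 401 FPKM, with *Krt5* listed at 0 in S52. The 5 leukocyte markers summed to 70.5, 73.2 and 25.9 FPKM, with *Cd3e* listed at 0 in S52 and *Ptprc*, which encodes the CD45 that the sort selected against, at 0.434 to 4.30 FPKM. The median differences of S52 were taken over detected markers, which left out *Krt5* and *Cd3e*. They were -2.34 and -1.46 for alveolar type 2, -2.04 and -1.95 for airway, and -1.40 and -1.27 for leukocyte markers. *Sdc1* and *Gpc3* lay between these medians in both contrasts, and *Sulf2* was nearer to 0 than each of them. With *Cd3e* counted in, the middle leukocyte difference from S38 would be that of *Cd52*, at -0.91, which is nearer to 0 than that of *Sulf2*. Single leukocyte markers differed widely. *Laptm5* was at -3.07 and -2.62, *Ptprc* at -1.89 and -1.09, and *Cd68* at -0.02 and -0.69.

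The other lists moved less evenly. The summed endothelial markers were 6369, 7058 and 6291 FPKM, with median differences of 0.09 and -0.06. Single endothelial markers moved either way. *Kdr* differed by -0.68 and -0.60 and *Cldn5* by -0.53 and -0.75, whereas *Emcn* differed by 0.77 and 0.56 and *Erg* by 0.51 and 0.96. The 5 lung capillary markers had medians of 0.34 and 0.02 and the 4 alveolar type 1 markers of 0.03 and 0.12, but their genes went opposite ways. *Ednrb* differed by -0.91 and -1.03 and *Car4* by -0.55 and -0.72, whereas *Gpihbp1* differed by 0.42 in both contrasts. *Aqp5* differed by -1.49 and -1.08 and *Hopx* by -0.55 and -0.72, whereas *Ager* differed by 0.60 and 0.96 and *Rtkn2* by 1.14 and 1.82. The 5 mural markers summed to 115, 60.2 and 111 FPKM, with median differences of 0.56 and 0.93, and 3 of 5 were highest in S52. The 4 lymphatic markers summed to 35.6, 36.2 and 23.5 FPKM, with *Ccl21a* listed at 0 in S52. *Pdpn*, which encodes the podoplanin that the sort selected against, was at 1.84 to 3.09 FPKM. Among the 3 detected lymphatic markers the median differences were those of *Flt4*, -0.25 and -0.26. *Pdpn* differed by 0.27 and 0.53 and the undetected *Prox1* by 0.50 and 0.45, whereas *Ccl21a* differed by -3.38 and -3.50. The 4 fibroblast markers summed to 73.1, 56.0 and 41.9 FPKM with median differences of -0.36 and -0.06. The 3 mesothelial markers summed to 2.04 and 5.83 FPKM in S38 and S44 and were all listed at 0 in S52. Only *Msln* was detected among them, with differences of -1.22 and -2.36. *Upk3b* differed by -0.64 and -1.44, and *Wt1* by -0.20 and 0. The part of these other cells in the levels of *Hpse*, *Sdc1*, *Gpc3*, *Sulf2* or any other member was not tested.

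**Figure D3:**
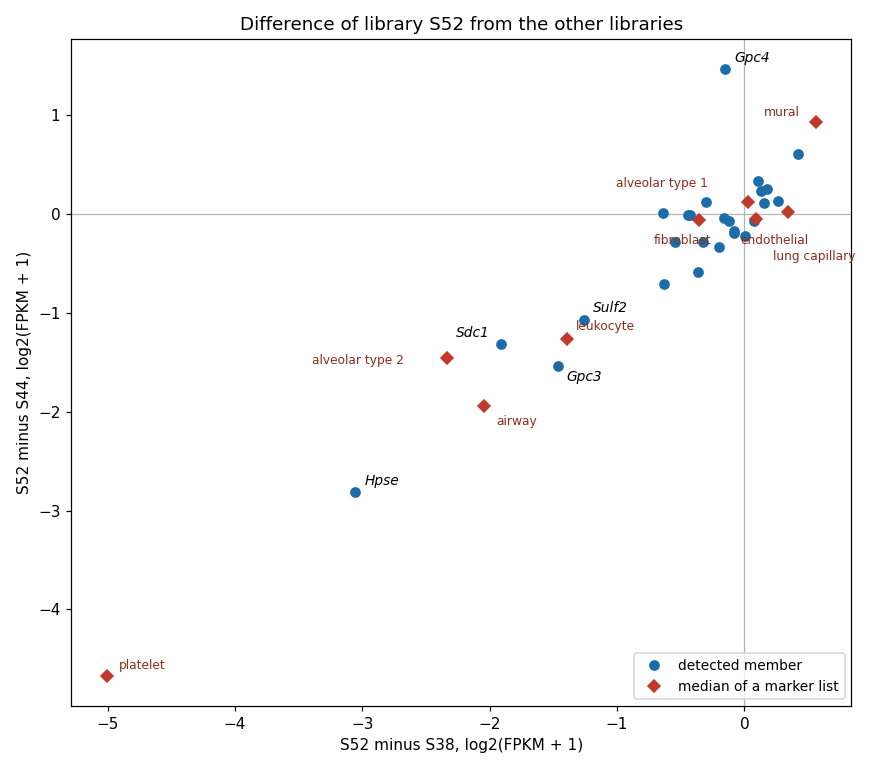
Difference of S52 from S38 (horizontal axis) and from S44 (vertical axis) in log2(FPKM + 1) for each of the 26 detected members (circles). Diamonds show the median over the detected genes of each of 9 marker lists. The median of the endothelial markers lies near 0 on both axes, at 0.09 and -0.06, though single markers moved either way. *Hpse* at -3.05 and -2.82 lies between that median and the platelet median at -5.01 and -4.67.

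The supply lines of the pathway were read from further gene lists, described by their counts alone. Synthesis of the linker between core protein and chain had 4 of 5 genes detected, led by *B3gat3* at 26.6 ± 2.804 FPKM, *Fam20b*, the xylose kinase, at 14.7 ± 3.63 FPKM and *B4galt7* at 7.83 ± 4.13 FPKM. The lowest was *Pxylp1*, the xylose phosphatase, at 0.266 ± 0.0959 FPKM. Supply of the sulfate donor and of the uronic acid donor had 6 of 7 detected, led by *Papss1* at 32.9 ± 3.42 FPKM, *Slc35b2*, the Golgi carrier of the sulfate donor, at 13.8 ± 0.954 FPKM and *Ugdh* at 13.7 ± 3.88 FPKM. *Papss2*, the paralogue of *Papss1*, was at 0.812 ± 0.122 FPKM. As with the transferases, the leading member of this pair of synthases was far above the other, in all 3 libraries.

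Chondroitin sulfate shares the linker with heparan sulfate, and 12 of its 16 genes were detected. *Csgalnact1*, which commits a chain to chondroitin sulfate, had 34.4 ± 6.86 FPKM, *Chst12* had 21.8 ± 4.42 FPKM and *Chst11* had 19.8 ± 1.67 FPKM, while *Chst13* was listed at 0. The *Csgalnact1* range of 26.6 to 38.9 FPKM lay above that of *Extl3* (8.56 to 14.6 FPKM), the enzyme at the corresponding branch toward heparan sulfate. Enzymes of lysosomal breakdown of these chains were detected for 8 of 9 genes, among them *Gusb* at 29.96 ± 2.48 FPKM and *Hgsnat* at 15.99 ± 1.22 FPKM. The lowest was *Hpse2*, the paralogue of heparanase without its activity, at 0.308 ± 0.2305 FPKM.

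Among proteins that bind, take up or cut hyaluronan 7 of 12 were detected. *Lyve1* had 509 ± 107 FPKM, *Tmem2*, which encodes a surface hyaluronidase, 71.3 ± 10.9 FPKM and *Stab1* 51.5 ± 11.2 FPKM, and *Hapln2* was listed at 0. *Tmem2* was thus below *Hyal2* and above *Hyal1* in each library. Of 12 other surface and secreted glycoproteins or proteoglycans all were detected. They were led by *Thbd* at 818 ± 344 FPKM, *Srgn* at 627 ± 78.6 FPKM and the sialomucin gene *Podxl* at 342 ± 19.4 FPKM, and the lowest was *Cspg4*, a mural marker, at 1.13 ± 0.6002 FPKM. The median of this list was 214 FPKM, above every one of the 42 members. Of proteins that act on or through heparan sulfate 14 of 17 were detected, with *Gpihbp1*, the capillary anchor of lipoprotein lipase, at 737 ± 129 FPKM, *Vegfa* at 134 ± 4.14 FPKM and *Cxcl12* at 102 ± 15.8 FPKM. *Fgf2*, a growth factor that signals with heparan sulfate, was lowest at 0.0651 ± 0.113 FPKM, seen only in S38.

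**Figure D4:**
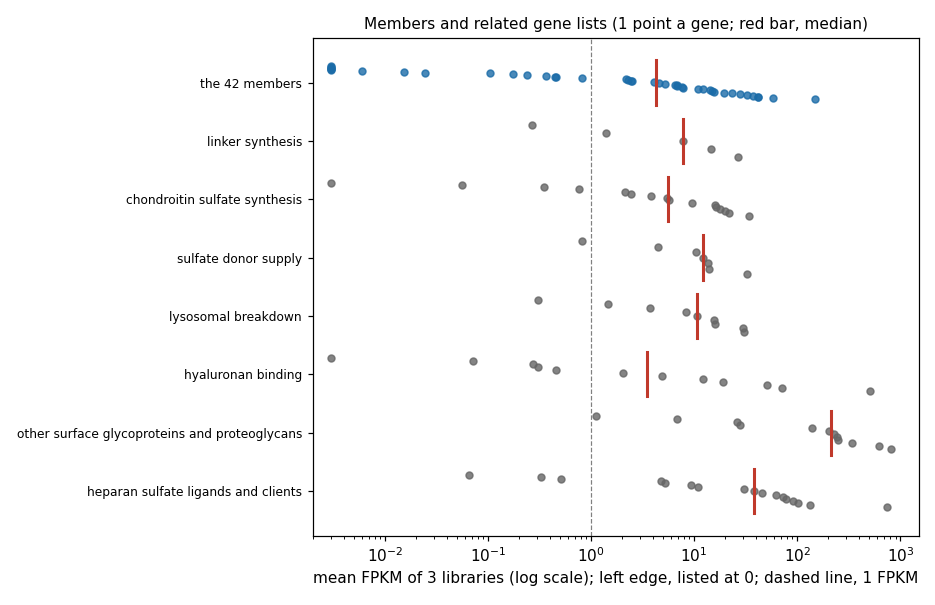
Mean FPKM over 3 libraries (horizontal log axis) for each of the 42 members and for each gene of 7 related lists, with a red bar at the list's median (4.31 FPKM for the members). Height within a row only spreads the points. Other surface glycoproteins and proteoglycans sit furthest right, with a median of 214 FPKM.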

How the data were processed

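RNA of sorted adult lung ECs was poly-A selected, made into non-stranded libraries and sequenced as paired reads of 51 bp. The deposited values are FPKM, which the authors gave for each gene symbol on mm10. The study's methods describe adapter removal with BBtools, alignment with STAR and counting with HTSeq, whereas the submitters' processing notes name bcl2fastq 2.17, FastQC 0.11.5, Trimmomatic 0.36, TopHat2 2.1.0 and Cufflinks 2.2.1 without roles. The tool and annotation behind the FPKM values are not given in the sources used here. Without strand, reads of overlapping genes cannot be told apart.

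Groups were taken from the sample labels, and only the 3 columns of adult lung ECs were used. Values were used as deposited, with means, SDs and ratios in FPKM (python 3.11.15, pandas 2.3.3, numpy 2.4.6). Differences are in log2(FPKM + 1), which understates changes of low genes. FPKM are not counts, so no count model was used, and with 3 libraries of 1 group no test was made (3 against 3 cannot go below p = 0.1 in an exact permutation test). The members and lists were chosen with earlier results of these data known. Library values are given for members with a mean of at least 10 FPKM, for the highest of each family and for detected members over 2-fold apart, and for a few others that were added after their values were seen. Of each further list the count, the 3 highest genes and the lowest are given, except for 1 gene that is not reported here.

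Depth was estimated from genes with 1 transcript in the basic set of GENCODE M21, 800 to 4000 bp long, as the step that makes low values whole fragments. This method was chosen with the values in view. Of 364, 484 and 216 low values in S38, S44 and S52, 78.3%, 75.8% and 73.1% lay within 0.15 of a whole fragment, and simulated depths over 7077 genes were recovered within 0.0233%. The simulation drew whole counts under the same transcript lengths and form of length correction that the fit assumes. Its error therefore does not measure the error of the depths estimated here. The depth is an estimate. Positions and overlaps are from GENCODE M21 (GRCm38), and start windows from RefSeq (GRCm38.p6). Alternatives tried were other detection limits, pseudocounts and scalings, and leaving out each library.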

Additional observations from a re-analysis of the deposited data

How the results depend on the processing

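Of 106 recomputed summary values 84 moved by less than their spread or within the set limits, 21 moved by more and 1 changed sign. The spread was the SD of the same libraries, so leaving a library out could not move a role-group sum or family share beyond it. The count of 84 is therefore no measure of stability. Leaving out each library in turn gave 26 to 27 detected members, a median of 3.29 to 4.89 FPKM and 1 to 5 detected members over 2-fold apart, the count of 1 coming without S52. With each library scaled to a sum of 1000000 FPKM, sums fell to 69.5 (syndecans), 23.8 (secreted proteoglycans), 63.5 (initiation and polymerisation), 80.5 (Golgi modification) and 132 FPKM (hyaluronidases). The median difference of detected members then was -0.46 for S52 minus S38 and 0.0893 for S52 minus S44, a reversed sign, with -0.34 and 0.0882 over all detected genes. Scaled without the 1295 short noncoding genes, which held 59.9% to 70.3% of each sum, the median was 9.21 FPKM and sums rose to 202, 46.3 (glypicans), 69.3, 185, 235, 67.1 (editing), 6.25 (synthases) and 384 FPKM. *Hpse*, *Sdc1*, *Gpc3*, *Gpc4* and *Sulf2* were over 2-fold apart under both scalings, joined by *Gpc2* and *Has1* in the former and *Gpc1* in the latter. A limit of 10 FPKM left 14 members detected and 2 of them over 2-fold apart. A limit of 0.1 FPKM gave 33 members detected, 12 of them over 2-fold apart, and a median of 6.88 FPKM. The share of all genes over 2-fold apart at these limits was not computed, so these counts have no background beside them. All 42 members gave -0.0824 for S52 minus S38. No paired analysis was possible because there is 1 group. Detection is limited by depth only below about 0.0479 FPKM for a transcript of 2000 bp.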

Other observations

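Across the 42 members the log2(FPKM + 1) values of 2 libraries had a Pearson correlation of 0.989 for S38 and S44, 0.951 for S38 and S52 and 0.953 for S44 and S52. The points are genes and not replicates, and each pair shares the same gene lengths and annotation. *B4galt7*, the transferase that adds the first galactose of the linker, was the only detected linker gene over 2-fold apart, with 11.2, 9.03 and 3.23 FPKM across S38, S44 and S52. *Cd44*, the hyaluronan receptor, had 25.5, 22.2 and 9.52 FPKM in the same order. *Hbegf*, a heparin-binding growth factor, ran the other way, with 43.4, 52.5 and 122 FPKM. These 3 genes were chosen after their values were seen, and no explanation was tested.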
